A study of Mus musculus with 6 samples.

Results

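Integrins and laminins were described in primary cultures of mouse proximal tubular epithelial cells, which form the first stretch of the kidney tubule and take back most of what the glomerulus filters. The members were the genes of the deposited table whose symbol names an integrin α or β chain or a laminin α, β or γ chain, with genes of integrin-binding and integrin-like proteins left out. This gave 38 of 24421 genes, 27 of them integrin chains and 11 laminin chains. Of the 38, 20 reached 1 FPKM (fragments per kilobase of gene, scaled to the reads of the library) in at least 3 of the 6 libraries and were tested, 12 integrin and 8 laminin genes. The other 18 were too low for that and are given by their reads further down.

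The study sequenced messenger RNA from 3 libraries labelled Atg5F/F, with floxed Atg5 alleles, and 3 labelled Atg5KO. ATG5 belongs to the machinery that attaches LC3 to the membrane of a forming autophagosome. Cells of both genotypes were grown in medium with serum and had received 20 µM erastin2, a blocker of cystine import that can set off ferroptosis, for 24 h. No library without erastin2 was analysed here, so a genotype difference present before treatment and one that depends on erastin2 cannot be told apart. The labels name neither the Cre that deleted Atg5 nor the animal or culture behind each replicate. The p-values therefore speak to the spread among these 6 libraries, part of which may be technical.

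An integrin is a pair of an α and a β chain that spans the cell membrane and ties the matrix outside to actin or, in hemidesmosomes, to keratin inside. A laminin is a cross-shaped trimer of an α, a β and a γ chain that polymerises into the basement membrane under an epithelium. In the kidney tubule, laminin under the cells is bound by integrins built on the α3 and α6 chains, and integrins built on the αv chain bind fibronectin, vitronectin and the latent form of TGF-β.

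The deposited FPKM values gave back whole reads, and the totals they imply were 15528454 to 30004933 reads per library. Over the whole gene, Atg5 was higher in the KO-labelled libraries (8.55 ± 0.54 against 12.5 ± 0.94 FPKM, SD, n = 3, limma adjusted p = 0.00055), so the deletion could not be checked from this level and each direction below rests on the labels. Of the 12 proximal tubule markers, 8 were tested. With the Atg5KO label 1 was called higher and 4 lower, where 21.3% and 17.9% of all tested genes were called. Their median log2 fold change was -0.31, beside 0.02 over all tested genes. The list summed to 656.5 to 691.4 FPKM with the Atg5F/F label and 563.2 to 614.3 FPKM with the Atg5KO label. Cubn, Slc34a1, Slc5a2 and Slc22a6, markers of the mature segment, were below 1 FPKM. Markers of distal tubule and collecting duct summed to at most 0.237 FPKM in any library. The list of 5 podocyte markers summed to 27.2 to 31.3 against 27.6 to 31.1 FPKM. Of these 5 genes, 2 were too low to be tested, and of the 3 tested 1 was called higher and 1 lower. The leukocyte list held 3 genes of 10 at 0 in every library and summed to 11.0 to 13.4 against 10.3 to 12.7 FPKM, nearly all of it from Csf1r and Cd68. The endothelial list summed to 8.50 to 10.1 against 5.27 to 6.57 FPKM, most of it Kdr, while Pecam1 and Cdh5, which define the type, averaged under 0.1 FPKM. The fibroblast and pericyte list summed to 1.70 to 2.72 against 0.674 to 1.09 FPKM, most of it Cspg4. In such bulk RNA, fewer cells of a type and less RNA per cell cannot be told apart. The part that these markers have in the results below was not tested.

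Across the 20 tested genes, 13 differed between the genotypes (limma, adjusted p under 0.05 over all 11559 tested genes), with 5 higher and 8 lower where the label was Atg5KO. That is 65.0% of the tested members, where 39.2% of all tested genes were called, 21.3% as higher and 17.9% as lower. The groups did not overlap for 16 of the 20 members, against 51.9% of all tested genes. The chains moved in both directions within single receptors and single trimers. Itgb4, the hemidesmosomal β chain, rose most, and Itgb6, the epithelial partner of αv, fell most. The count of lower genes was 4 without F/F-labelled replicate 2, 5 without F/F-labelled replicate 3 and 4 without KO-labelled replicate 1, and the count of higher genes was 5 whichever library was left out. The median log2 fold change of the members was -0.07 and its median size 0.21, beside 0.02 and 0.14 over all tested genes. Fold changes are KO-labelled minus F/F-labelled on the log2(FPKM + 1) scale; the added 1 makes changes of genes near 1 FPKM look smaller than they are. Of the 20, 18 were at 1 FPKM or more in all 6 libraries, and Itgb3 and Lama3 missed it in 1 KO-labelled library each.

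**Figure D1:**
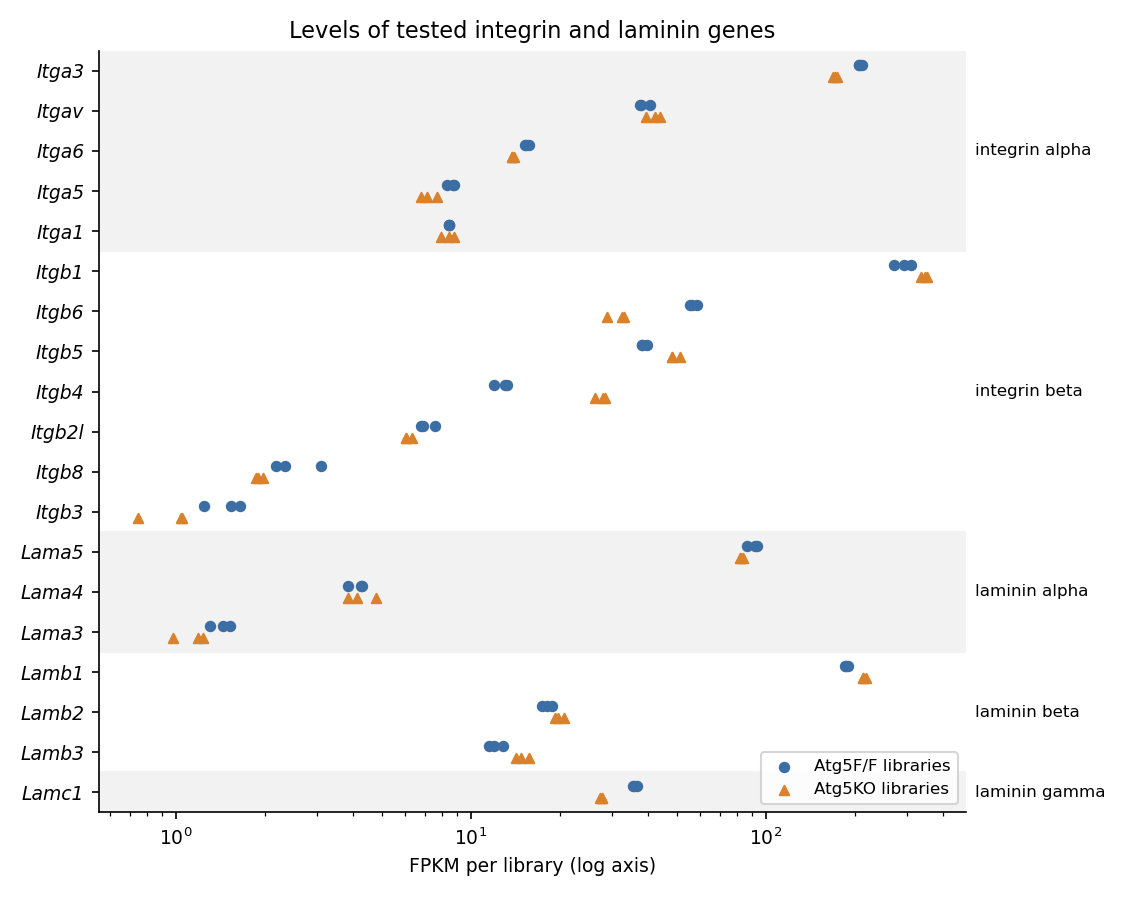
Levels of tested integrin and laminin genes, in FPKM on a log axis, 1 point per library, with Atg5F/F libraries as circles and Atg5KO libraries as triangles. Itgb1 at 272.6 to 351.0 FPKM and Itga3 at 168.8 to 212.5 FPKM are the most abundant, and the groups stand farthest apart for Itgb4 and Itgb6.

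The β chains that share the αv partner went in opposite directions, so the upstream sequences of Itgb6 and Itgb5, the most abundant of them beside Itgb1, are shown here. They are RefSeq promoter windows on GRCm38.p6, from 250 bases before to 50 bases after the annotated start, 5′ to 3′ on the gene's strand, and 24 of the 38 members had such a window. Both strands were searched for the TATA box as TATAAA, the CCAAT box by those letters, the GC box as GGGCGG, the AP-1 motif as TGANTCA, the TEAD motif as GGAATG and the core bound by SMAD proteins as CAGAC. Capitals mark the matches.
Itgb6 promoter, chr2:60722554-60722853, minus strand: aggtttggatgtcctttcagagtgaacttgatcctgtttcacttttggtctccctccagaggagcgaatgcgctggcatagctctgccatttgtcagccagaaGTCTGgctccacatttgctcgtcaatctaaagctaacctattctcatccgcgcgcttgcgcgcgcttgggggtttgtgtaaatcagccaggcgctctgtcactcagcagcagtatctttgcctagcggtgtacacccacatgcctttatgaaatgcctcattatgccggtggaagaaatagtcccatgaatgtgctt
Itgb5 promoter, chr16:33829415-33829714, plus strand: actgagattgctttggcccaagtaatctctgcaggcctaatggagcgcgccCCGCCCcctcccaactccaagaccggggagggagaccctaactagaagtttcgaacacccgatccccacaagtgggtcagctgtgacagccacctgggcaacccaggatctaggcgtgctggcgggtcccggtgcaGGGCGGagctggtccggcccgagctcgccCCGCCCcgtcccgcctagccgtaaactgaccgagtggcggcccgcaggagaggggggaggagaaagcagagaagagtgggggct
The Itgb6 window had 50.3% GC and held 1 match, CAGAC on the opposite strand, at position -147 from the start. The Itgb5 window had 65.7% GC and held 3 GC boxes, at positions -199, -63 and -34. No match to the TATA box, the CCAAT box, the AP-1 motif or the TEAD motif was found in either window. Of 32851 promoter windows of the same 300 bases, 49.6% held the SMAD core, 35.7% a GC box, 13.6% the TATA box letters, 37.4% the CCAAT box, 7.81% the AP-1 motif and 14.7% the TEAD motif. A match is a run of letters and not a bound site.

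Integrin β6 pairs with αv alone, is made by epithelia and activates latent TGF-β. Itgb6 (chromosome 2, 60598292 to 60722643) stood at 56.3, 58.6 and 55.1 FPKM in F/F-labelled replicates 1 to 3 and at 32.9, 28.9 and 32.5 FPKM in KO-labelled replicates 1 to 3. Every KO-labelled library was below every F/F-labelled one, and the means differed 1.80-fold (log2 fold change -0.83, SE 0.054, limma adjusted p = 1.2e-05). Integrin β5 also pairs with αv alone and binds vitronectin. Itgb5 (chromosome 16, 33829665 to 33949338) stood at 38.1, 37.9 and 39.5 against 48.0, 51.2 and 48.1 FPKM. All 3 KO-labelled libraries were higher, by a log2 fold change of 0.34 (SE 0.040, adjusted p = 0.00027). Itgav, the shared α chain, was at 40.6, 37.6 and 37.7 against 42.1, 39.3 and 43.6 FPKM. Its groups overlapped and it was not called (0.11, SE 0.050, adjusted p = 0.12).

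The order of the αv partners thus changed between the genotypes. In each library the FPKM of Itgb6 over that of Itgb5 was 1.48, 1.54 and 1.40 in replicates 1 to 3 labelled Atg5F/F and 0.687, 0.564 and 0.676 in those labelled Atg5KO. This ratio was above 1 in every F/F-labelled library and below 1 in every KO-labelled library (exact two-sided permutation p = 0.1, the smallest that 3 against 3 can give). Of the summed FPKM of Itgb3, Itgb5, Itgb6 and Itgb8, Itgb6 made up 57.1% ± 0.94 and 37.7% ± 2.5 (SD, n = 3), and Itgb5 38.8% ± 1.3 and 58.9% ± 2.4. With the abundant Itgb1, which also pairs with αv, added to the sum, Itgb6 made up 14.5% ± 1.0 and 7.35% ± 0.54 and Itgb5 9.84% ± 0.46 and 11.5% ± 0.45. The sum without Itgb1 was 99.2 ± 1.8 and 83.4 ± 0.38 FPKM. Over Itgav, the ratio of Itgb6 went from 1.47 ± 0.087 to 0.754 ± 0.026.

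Itgb8, a second receptor chain for latent TGF-β, and Itgb3, the β chain of the vitronectin receptor and of the platelet fibrinogen receptor, were both scarce. Itgb8 averaged 2.54 ± 0.49 and 1.92 ± 0.059 FPKM and was not called (-0.27, SE 0.10, adjusted p = 0.062). Its groups did not overlap, and F/F-labelled replicate 2, at 3.10 FPKM, was the highest library. It was called without F/F-labelled replicate 3 (adjusted p = 0.048), by voom on the recovered reads (0.046), under quantile normalization (0.045) and with the trend on gene length removed (0.046). Without F/F-labelled replicate 2 its log2 fold change was -0.16 (adjusted p = 0.16). Itgb3 averaged 1.48 ± 0.21 and 0.948 ± 0.18 FPKM and was called lower (-0.35, SE 0.11, adjusted p = 0.030). The call was lost without F/F-labelled replicate 2, F/F-labelled replicate 3 or KO-labelled replicate 1 (adjusted p = 0.091, 0.096 and 0.092). The log2 fold change of Itgb3 was -0.62 by voom on the recovered reads, 563 and 293 reads in all.

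Integrin β4 pairs with α6 alone and anchors laminin to the keratin network in hemidesmosomes. Itgb4 (chromosome 11, 115974709 to 116008412) stood at 13.1, 12.0 and 13.2 FPKM in F/F-labelled replicates 1 to 3 and at 28.0, 28.5 and 26.3 FPKM in KO-labelled replicates 1 to 3. The groups lay far apart, 2.16-fold in their means (log2 fold change 1.06, SE 0.051, limma adjusted p = 3.0e-06). Of 7015 annotated exonic bases of Itgb4, 537 overlap a noncoding gene on the other strand, B230344G16Rik, and the strand setting of the authors' counting is not given in the sources used here. Itgb4 and Itgb6 were the members both called and at least 0.5 in log2 fold change, in either direction, which held for 6.86% of all tested genes.

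The α6 chain, a laminin receptor with either β1 or β4, did not follow its partner. Itga6 (chromosome 2, 71745616 to 71858416) was at 15.3, 15.8 and 15.3 against 13.8, 14.0 and 13.8 FPKM, called lower at -0.15 (SE 0.040, adjusted p = 0.019). That call did not hold without F/F-labelled replicate 2 (adjusted p = 0.052), F/F-labelled replicate 3 (0.055) or KO-labelled replicate 1 (0.055). The FPKM of Itgb4 over that of Itga6 was 0.851, 0.762 and 0.865 with the Atg5F/F label and 2.03, 2.04 and 1.90 with the Atg5KO label. The β4 message was thus below that of α6 in all 3 of the first and above it in all 3 of the second. As both chains had already separated in opposite directions, the exact two-sided permutation p of 0.1, the smallest possible, was fixed beforehand.

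**Figure D2:**
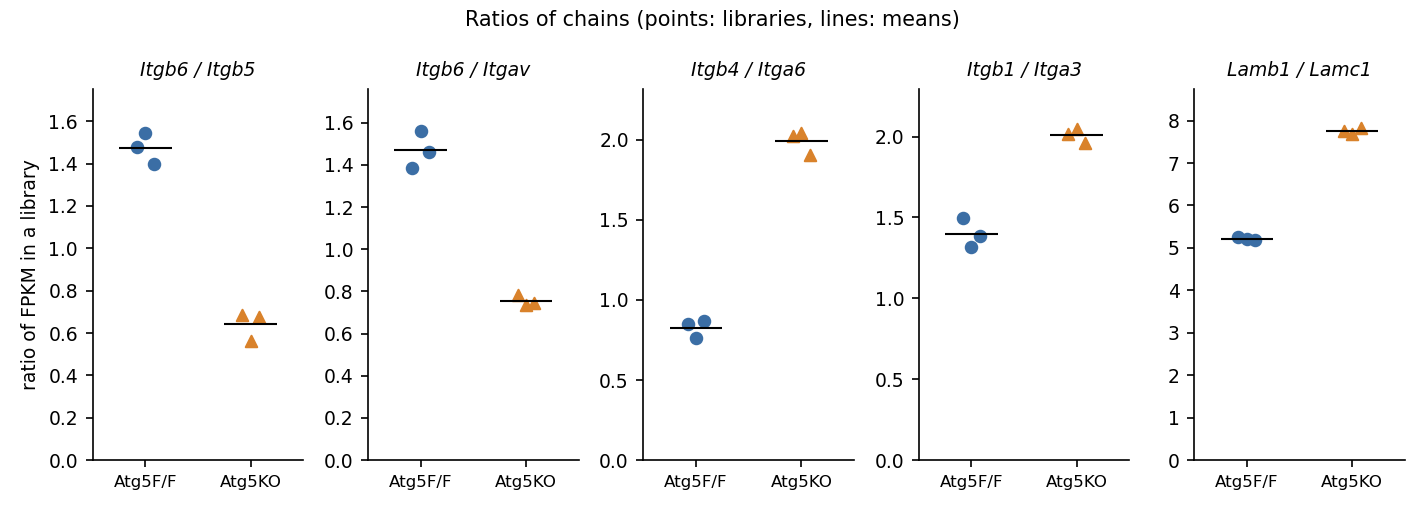
Ratios of FPKM between chains in each library, with the means as lines, for Itgb6 over Itgb5, Itgb6 over Itgav, Itgb4 over Itga6, Itgb1 over Itga3 and Lamb1 over Lamc1. No ratio overlaps between the groups. In every pair but Itgb6 over Itgav this was bound to be so, since the chains had each separated in opposite directions. Itgb6 over Itgb5 goes from a mean of 1.47 to 0.642 and Itgb4 over Itga6 from 0.826 to 1.99.

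Integrin β1 partners most α chains, and integrin α3 joins β1 alone as a laminin receptor of the tubule. Itgb1 (chromosome 8, 128685654 to 128733200) was the most abundant member, at 311.3, 272.6 and 294.3 against 351.0, 345.8 and 336.5 FPKM. The groups did not overlap and F/F-labelled replicate 2 was the lowest (log2 fold change 0.24, SE 0.055, adjusted p = 0.0094). Itga3 (chromosome 11, 95044474 to 95076801) was at 207.7, 206.9 and 212.5 against 174.3, 168.8 and 171.4 FPKM. It fell in all 3 KO-labelled libraries, by 0.28 on the log2 scale (SE 0.037, adjusted p = 0.00048). The ratio of Itgb1 to Itga3 went from 1.40 ± 0.092 to 2.01 ± 0.043 (SD, n = 3).

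Among the 18 α chains, 5 were tested, 3 were called lower and 0 higher by limma. Itgav and Itga1, the other 2, had unadjusted p-values of 0.063 and 0.87, and voom on the reads called neither. Itga3 made up 74.0% of the summed α chain FPKM with the Atg5F/F label and 70.1% with the Atg5KO label, and Itgav 13.7% and 17.0%. Itga5, the α chain of the classical fibronectin receptor, averaged 8.59 ± 0.26 and 7.19 ± 0.44 FPKM and fell by 0.23 on the log2 scale (SE 0.057, adjusted p = 0.013). Itga1, a collagen receptor chain, overlapped between the groups at 8.43 and 8.37 FPKM (-0.01, adjusted p = 0.91). All 7 tested β chains had groups that did not overlap, against 51.9% of all tested genes, and 3 were called higher and 3 lower, where 39.2% of all tested genes were called. Summed over each class, α chains came to 282.6 ± 2.3 and 244.8 ± 4.7 FPKM and β chains to 411.8 ± 17.9 and 461.6 ± 8.3 FPKM.

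Itgb2l, a relative of the leukocyte β2 chain, was at 7.08 ± 0.43 and 6.12 ± 0.17 FPKM, called lower at -0.18 (SE 0.059, adjusted p = 0.037). The call was lost without F/F-labelled replicate 1, 2 or 3 (adjusted p = 0.059, 0.11 and 0.056) and without KO-labelled replicate 1 or 3 (0.097 and 0.092), with no filter on low genes (0.071) and by voom on the recovered reads (0.055). Next to Itgb2l on chromosome 16 (96422288 to 96443619) lies Igsf5 (96361668 to 96422121), an adhesion gene named after its values were seen. It is on the other strand and shares no exon with Itgb2l. Igsf5 fell as well, from 62.4 ± 0.53 to 54.2 ± 1.8 FPKM (-0.20, SE 0.037, adjusted p = 0.0033). Itgb2, the β2 chain itself, had 4 and 1 reads over the 3 libraries of each group, and Ptprc, the leukocyte marker, averaged 0.0409 and 0.0252 FPKM.

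**Figure D3:**
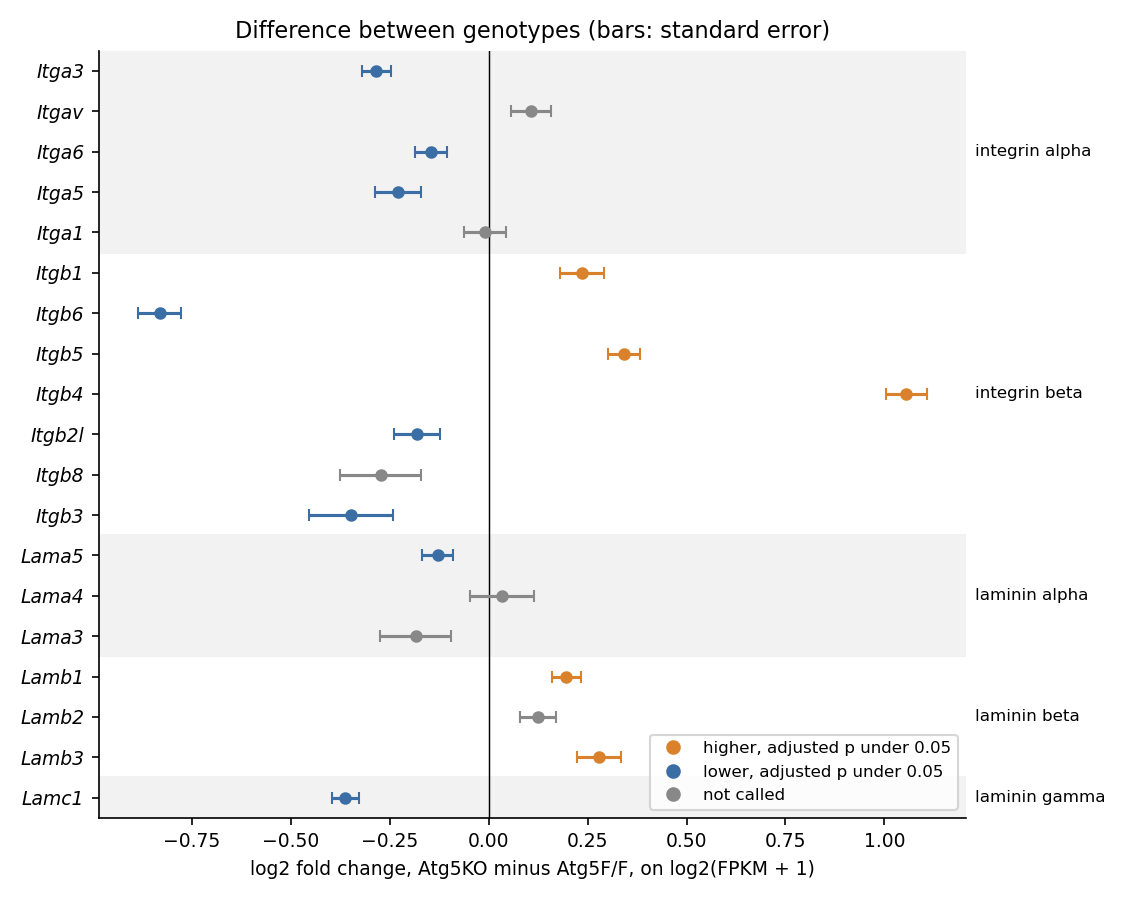
Log2 fold changes of tested members, KO-labelled minus F/F-labelled on log2(FPKM + 1), with its standard error, coloured by the call at an adjusted p under 0.05. The 13 called genes run from Itgb6 at -0.83 to Itgb4 at 1.06, and genes not called are grey.

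Among laminins, a trimer of the Lama5, Lamb1 and Lamc1 chains is the common one of epithelial basement membranes, and these were the most abundant chains of their classes in every library. Lamb1 (chromosome 12, 31265234 to 31329644) was at 187.2, 185.2 and 189.8 against 213.0, 213.4 and 218.1 FPKM. It was higher in all 3 KO-labelled libraries (log2 fold change 0.20, SE 0.036, limma adjusted p = 0.0033). Lamc1 (chromosome 1, 153218922 to 153332786) was at 35.6, 35.5 and 36.6 against 27.5, 27.8 and 27.9 FPKM. It was lower in all 3, the clearest laminin difference (-0.36, SE 0.035, adjusted p = 9.6e-05). The Lama5 gene (chromosome 2, 180176373 to 180225859) stood at 86.6, 91.9 and 93.7 against 82.0, 82.5 and 83.9 FPKM.

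Lama5 was called lower by a small margin (-0.13, SE 0.040, adjusted p = 0.032). That call was lost without F/F-labelled replicate 2 or 3 (adjusted p = 0.082 and 0.13), without KO-labelled replicate 1 or 2 (0.092 and 0.070), under quantile normalization (0.21) and with no variance trend (0.060). The ratio of Lamb1 to Lamc1 was 5.25, 5.22 and 5.19 with the Atg5F/F label and 7.76, 7.69 and 7.82 with the Atg5KO label. Its spread within a group was small beside the gap between the groups. That the groups separate follows from Lamb1 and Lamc1 having separated in opposite directions. The exact two-sided permutation p of 0.1, the smallest possible, was thus fixed. FPKM describes message, and the protein trimers were not measured.

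Lama3 and Lamb3 encode an α and a β chain of the laminin that hemidesmosomes bind. Lamb3 (chromosome 1, 193207699 to 193343878) was at 11.9, 11.5 and 12.9 against 15.7, 14.8 and 14.2 FPKM and was called higher (0.28, SE 0.056, adjusted p = 0.0048). Lama3, the α chain, was near the limit of the filter at 1.45, 1.30 and 1.53 against 1.24, 0.977 and 1.19 FPKM. The groups did not overlap. It was not called on the log2(FPKM + 1) scale (-0.18, SE 0.090, adjusted p = 0.14), but was called by voom on the recovered reads, 1011 and 638 reads in all (-0.34, adjusted p = 0.011).

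Lamb2 and Lama4 were not called. Lamb2, a β chain of the glomerular and muscle basement membrane, was at 17.5, 18.1 and 18.9 against 19.3, 20.6 and 19.7 FPKM (0.13, SE 0.046, adjusted p = 0.057), and by voom on the reads its adjusted p was 0.026. Lama4, best known from vessel walls, was at 4.27, 4.24 and 3.83 against 4.10, 3.84 and 4.78 FPKM (0.03, SE 0.081, adjusted p = 0.77). Lamb1 made up 86.1% of the summed laminin β chain FPKM in both groups, and Lama5 held 93.9% and 93.6% of the α chain sum.

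Of the 18 members below the filter, Itga2, an α chain of a collagen receptor, stood out. It had 20, 9 and 16 reads with the Atg5F/F label and 52, 33 and 28 reads with the Atg5KO label, or 0.155 ± 0.016 and 0.490 ± 0.12 FPKM. The groups did not overlap. Voom on genes with at least 10 reads in 3 libraries, chosen after seeing the data, tested 27 members and called 16, where 41.1% of all genes in that fit were called. Itga2 was among them (log2 fold change 1.60, adjusted p = 0.00027), and so was Itga7, a laminin receptor chain of muscle, at 0.858 ± 0.27 and 0.490 ± 0.13 FPKM (-0.70, adjusted p = 0.030). Lama2, the laminin α chain of muscle and nerve, had 2, 3 and 4 reads against 6, 13 and 18. These were too few for that fit, and the authors' deposited table gave it an FDR of 0.000974.

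The remaining 15 untested members were at most 0.793 FPKM in any library apart from Itgam, which had 0 reads in all 6. Of these, Itga10 (0.701 and 0.685 FPKM), Lama1 (0.343 and 0.264) and Lamc3 (0.252 and 0.305), a collagen receptor chain, a laminin α and a laminin γ chain, overlapped between the groups. Of 5024 annotated exonic bases of Itgam, 3450 are shared on the same strand with the protein-coding gene Gm49368. For Itga10, 1739 of 5186 are shared with Gm42957. How the authors' counting treated such bases is not given, so the levels of both members may be too low. Itga2b, the platelet α chain, was at 0.425 ± 0.031 and 0.296 ± 0.021 FPKM and did not overlap, and voom did not call it (adjusted p = 0.13). The 4 platelet markers summed to 1.28 to 1.78 against 2.09 to 2.70 FPKM, with Pf4 at 0 reads in every library. Most of that sum came from 1 gene, the only one tested, which was called higher. The part of these markers in the levels of Itga2b and Itgb3 was not tested. Chains of leukocyte integrins were barely detected: Itgal had 9 and 3 reads in all, Itgax 1 and 0, Itgad 7 and 4, Itgb7 8 and 8, and Itga4 11 and 4. Reads in all, here and above, are not scaled to depth. The library totals were 15528454 to 30004933 reads with the Atg5F/F label and 16922491 to 19724355 with the Atg5KO label. By the FDR in the authors' deposited table, 18 of the 38 members were under 0.05, beside 22.0% of all genes, and these included the 13 called here.

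The genes around these receptors were taken from lists of ligands, matrix partners and adaptors. Of 37 tested adaptors of integrin activation and focal adhesions, 20 were called higher and 5 lower, beside 21.3% and 17.9% of all tested genes, with a median log2 fold change of 0.14 beside 0.02. Of the 20, Tgfb1i1, named after its values were seen, passed the filter through the KO-labelled libraries alone (0.607 and 1.20 FPKM). Fermt1, the epithelial kindlin that binds β tails, rose from 13.8 ± 0.27 to 30.1 ± 0.94 FPKM (1.07, SE 0.041, adjusted p = 1.7e-06). Parvb, a parvin of the complex with integrin-linked kinase, rose from 4.47 to 9.67 FPKM (0.96), Tln2, a talin, from 5.54 to 8.51 FPKM (0.54), and Enah, an actin regulator at adhesions, from 26.8 to 38.3 FPKM (0.50). The widespread talin Tln1, named after its values were seen, was not called (63.1 and 65.0 FPKM, 0.04, adjusted p = 0.43).

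The list of integrin ligands held 29 symbols, some of them a second name of a gene already listed, and 27 were in the table. Of these, 14 were tested, with 7 called higher and 3 lower (21.3% and 17.9% of all tested genes) and a median of 0.18. Fn1, fibronectin, rose from 237.4 ± 12.6 to 472.2 ± 31.9 FPKM (0.99, SE 0.062, adjusted p = 9.6e-06). Mfge8, a bridging ligand of αv integrins, fell from 348.1 to 218.9 FPKM (-0.67). Postn, periostin, and Vcam1, a ligand of α4 integrins, passed the filter through the KO-labelled libraries alone (0.760 to 8.01 and 0.572 to 1.87 FPKM), so their call was bound to be upward. Both are counted in the 7 and in the median, which lean upward by them. Tgfb1, whose latent product β6 activates and which is named after its value was seen, was not called at 19.1 and 18.4 FPKM (-0.05, adjusted p = 0.43).

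Partners of laminin in the basement membrane were called in both directions, 4 higher and 8 lower of 17 tested (21.3% and 17.9% of all tested genes), with a median of -0.12. Nid1, nidogen, which binds the laminin γ1 chain, rose from 6.23 ± 1.0 to 17.7 ± 1.9 FPKM (1.38, SE 0.11, adjusted p = 3.5e-05) while Lamc1 fell. Col18a1, a basement membrane collagen, fell from 87.6 to 46.1 FPKM (-0.91), and Col4a6 from 6.69 to 4.30 FPKM (-0.54). Fras1, an adhesion protein of embryonic basement membranes, was at 0.323 and 1.17 FPKM and passed the filter through the KO-labelled libraries alone. Its call was thus bound to be upward, and it is counted in the 4 and in the median.

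Of 12 other laminin receptors and tetraspanins, all tested, 3 were called higher and 4 lower, with a median of -0.09, where 21.3% and 17.9% of all tested genes were called. Bcam, which binds laminin α5, fell from 101.2 ± 13.0 to 58.1 ± 5.1 FPKM (-0.78, SE 0.095, adjusted p = 0.00033), and Cd63 fell from 265.6 to 204.3 FPKM (-0.38). The syndecans Sdc2 and Sdc1, coreceptors for matrix, rose from 14.8 to 25.6 FPKM (0.75) and from 26.0 to 38.4 FPKM (0.54). Of 6 hemidesmosome genes 3 were tested, Plec, Dst and Cd151, the last of which the list of tetraspanins holds too. Dst alone was called, barely (0.13, adjusted p = 0.039), and was not called without F/F-labelled replicate 1, 2 or 3 (adjusted p = 0.086, 0.086 and 0.091) or KO-labelled replicate 2 or 3 (0.054 and 0.11). Plec, which links β4 to keratin and is named after its values were seen, was at 37.6 and 39.9 FPKM (0.08, adjusted p = 0.17), and Col17a1, Krt5 and Krt14 were under 1 FPKM. Itgb4 was called higher, then, while neither Plec nor Itga6 was.

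**Figure D4:**
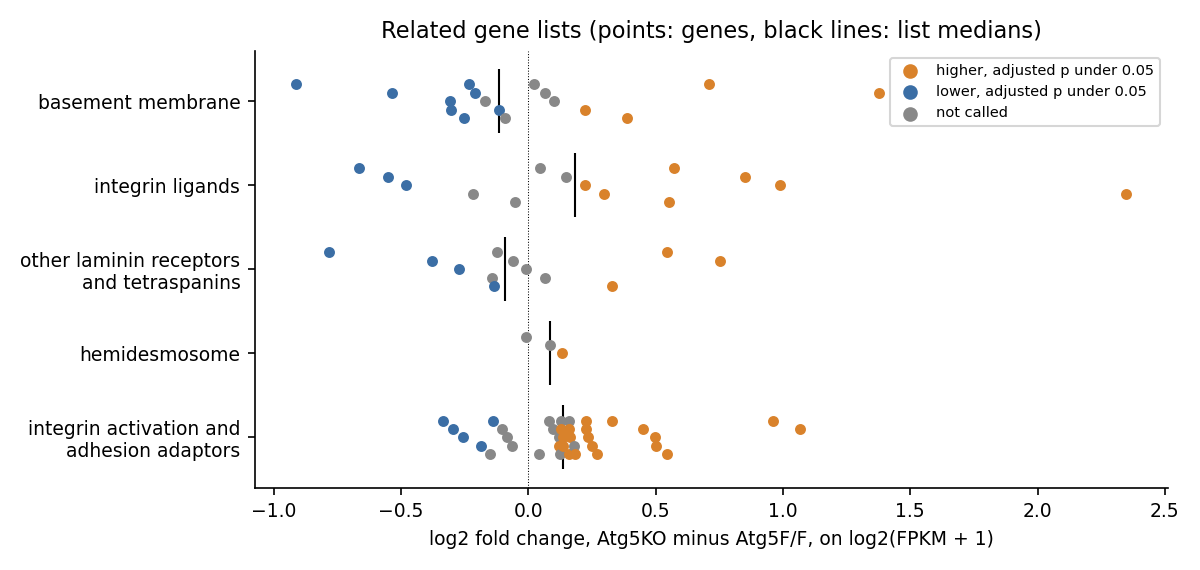
Log2 fold changes of the tested genes in the 5 related lists, 1 point per gene, coloured by call, with the list median as a black line. Medians run from -0.12 for basement membrane partners to 0.18 for integrin ligands, and every list but the hemidesmosome holds called genes on both sides of 0. Points and medians include Postn, Vcam1, Fras1 and Tgfb1i1, which passed the filter through the KO-labelled libraries alone.

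Gene length bears on these comparisons. In the tested genes, a library's deviation from the gene mean ran with length at a Spearman correlation of -0.16 to -0.23 across genes in the F/F-labelled libraries and 0.04 to 0.34 in the KO-labelled ones, and 19 of the 20 tested members were longer than the median tested gene of 2854 bases. With that trend removed, 5 members were called higher and 10 lower, and Itgb4 (0.98), Itgb6 (-0.89), Lamc1 (-0.44), Itga3 (-0.35), Itgb1 (0.19) and Lamb1 (0.13) kept their calls. Lama5 then stood at -0.22, beside -0.13 before. Of the integrin adaptors, 14 were called higher and 6 lower with the trend removed, in place of 20 and 5. Over all genes 4429 were called, in place of 4530.

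**Figure D5:**
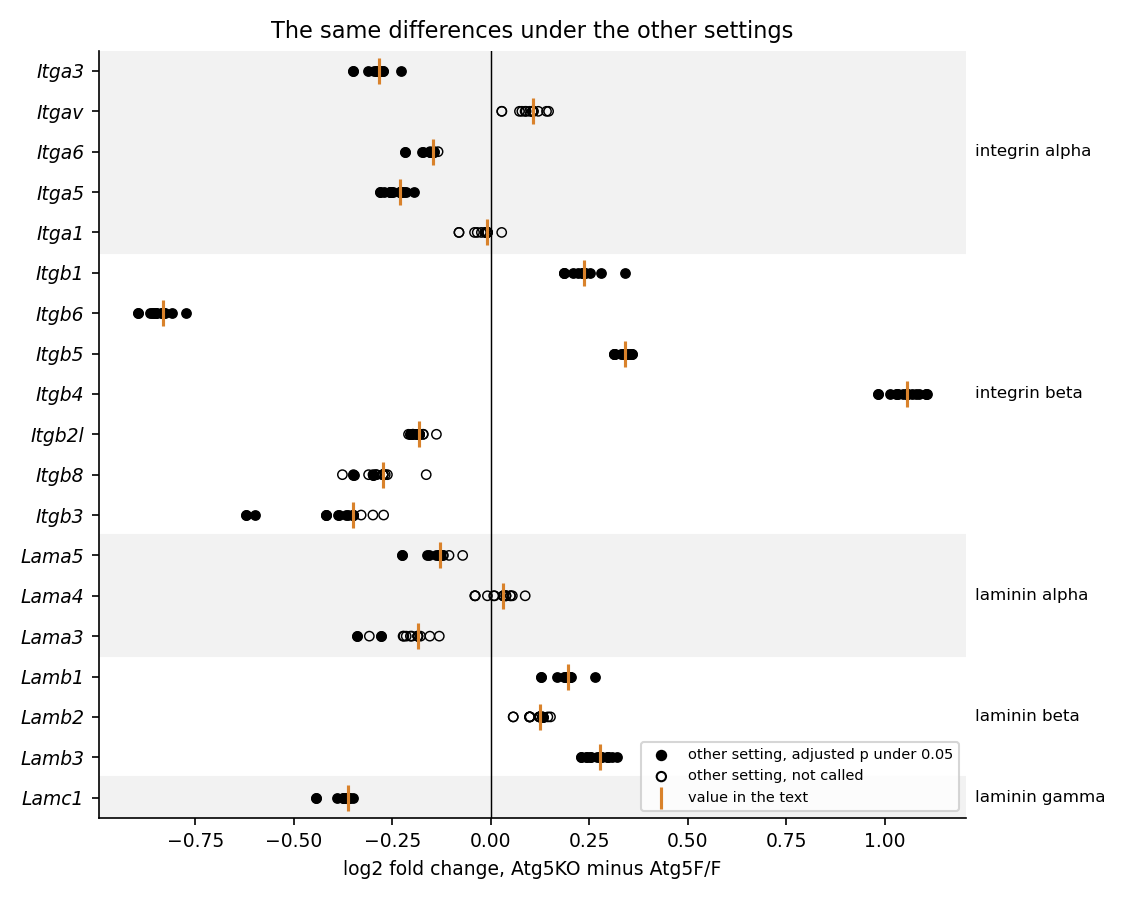
Log2 fold changes of tested members under each other processing setting, filled where the adjusted p was under 0.05, with the value in the text as an orange bar. Itgb4 stays between 0.98 and 1.11 and Itgb6 between -0.89 and -0.77, while the open circles of Itga1 and Lama4 lie on both sides of 0.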

How the data were processed

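Messenger RNA was made into libraries with a stranded Illumina kit, per the labels' protocols. Per the submitters' processing notes, bcl2fastq was used, reads were trimmed with Trimmomatic 0.35, and HISAT2 2.1.0, edgeR and featureCounts 1.4.6 also took part, on GRCm38 (mm10). Which annotation and strand setting the counting had is not given in the sources used here. FPKM values per gene and library were deposited by the authors, with their log2 fold change, an FDR and a ranking score, per the file headers. A further column is headed as an adjusted p-value and was read here as the p-value behind the FDR. The score and the authors' fold change were not used for any call.

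From the deposited FPKM, whole reads were recovered for 18296 genes above 0, 100% of them, within 1e-04 reads or a relative tolerance of 3e-09. For genes with few reads, whole multiples of a solution are whole as well, and the multiple was set by the annotated gene length. The scale of reads of the lowest members thus rests on that choice. The totals per library ran from 15528454 to 30004933 reads, and the reads behind low members are printed with them. limma 3.58.1 in R 4.3.3 was fitted to log2(FPKM + 1) of 11559 genes, those that reached 1 FPKM in 3 or more of the 6 libraries, with a variance trend and no covariate, two-sided, with Benjamini-Hochberg adjustment over all of them and calls at 0.05. Single ratios were tested by exact permutation, whose outcome was fixed where the chains of a ratio had already separated in opposite directions. Shares and ratios compare FPKM, which is per length, and carry no adjustment.

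Members and lists were chosen with earlier results of these data known. Named genes were Atg5, the members, and in each related list up to 4 called genes with the largest change, except where the text says a gene was named after its value was seen, and apart from cell type markers and the members of the small hemidesmosome list; library values are given for members called with a log2 fold change of at least 0.5 in size or among the 3 most abundant of their class. Alternatives were leaving out each library in turn, the replicate number as a block, other scalings, pseudocounts and filters, robust or untrended variance, voom on the recovered reads, and removal of each library's loess trend on gene length (span 0.5). Counts over members include all of them, but a member and a marker gene are not reported here by value. Coordinates are from GENCODE vM21 on GRCm38. Tables were read in Python 3.11.15 with numpy 2.4.6 and pandas 2.3.3, and the scripts were tested on simulated data.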

Additional observations from a re-analysis of the deposited data

How the results depend on the processing

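Under 18 alternatives, 1 of them (voom on genes with 10 reads in 3 libraries) chosen after seeing the data, 9 of the 13 called members were called in every one and 4 lost the call in at least 1 (Itga6, Itgb3, Itgb2l and Lama5), while 0 changed direction. Itgb3, Itgb8, Lama3 and Lama4 could not be fitted under the filter of 5 FPKM, which leaves out genes this low. Calls over all genes numbered 3265 to 5482. Leaving out 1 library gave 4 to 7 lower members in place of 8, and 5 higher members throughout. The hemidesmosome list had 0 to 1 higher genes when a library was left out, and 0 under median-ratio scaling, quantile normalization, no filter, no variance trend, and the length trend removed with or without the replicate block. Adaptors called lower numbered 3 to 6 when a library was left out and 3 under quantile normalization, in place of 5. Those called higher numbered 16 to 19 when a library was left out, in place of 20. They were 16 under median-ratio scaling, 14 with the length trend removed and 24 by voom on the recovered reads. Basement membrane genes called higher were 2 in place of 4 under the filter of 5 FPKM, which tests fewer genes. Otherwise the cause of these shifts was not tested. Among uncalled members described here the sign turned without 1 library for Itga1 (-0.041 to 0.028) and Lama4 (-0.040 to 0.088), and with the length trend removed, alone or with the replicate block, for Lama4 (-0.039). Lama4 was at -0.0081 without F/F-labelled replicate 3.

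Same-numbered libraries of the 2 groups deviated together at correlations of 0.16, 0.08 and -0.02, so the numbers were not taken as pairs. With the replicate block, 4668 of all genes were called in place of 4530, and 5 members were higher and 8 lower, as without it.

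With 3 libraries a group, the smallest p of an exact test of a single value is 0.1. Depth limits the precision of the members under 1 FPKM, whose values rest on few reads.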
